A study of Homo sapiens with 8 samples.

Results

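The response to 5-aza-2′-deoxycytidine (5-Aza-CdR) was measured in RKO cells, a human colon carcinoma line, that carried a control siRNA. The 4 of 8 arrays of the series whose cells had received non-target (NC) siRNA were compared, 2 with 5-Aza-CdR and 2 with PBS, the vehicle. Both groups had 100 nM NC siRNA for 24 h and then 1 µM 5-Aza-CdR or PBS, so the siRNA is common to them and only the drug differs. The labels set the drug or PBS step at 72 h. The methods describe a shorter exposure with RNA taken 72 h later, and which of these holds here is not settled. Of 48801 probes on the array (Illumina HumanWG-6 v3, which measures messenger RNA), 18910 were detected (detection p under 0.01) on 2 or more of these 4 arrays and are called kept probes. They include 15136 probes with a gene symbol, for 11251 genes, and the brightest kept probe over the 8 arrays stands for its gene.

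5-Aza-CdR is a cytosine analogue that is built into DNA during replication and traps the DNA methyltransferases, so that methylation of CpG dinucleotides is lost as cells divide. Genes with methylated promoters, among them germline genes and genes silenced in tumours, are known to regain expression under such drugs. DNA methylation itself was not measured on these arrays. RKO cells are known for dense promoter methylation.

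Between 18002 and 18408 probes were detected on each of the 4 arrays, and the 2 arrays of a group correlated across kept probes at r = 0.982 with 5-Aza-CdR and r = 0.981 with PBS. Replicate 1 of each group was on slide 1 and replicate 2 on slide 2. Whether replicates came from separate cultures is not stated, and p-values then cover only the spread between these arrays, which may be technical. Values are normalized log2 signals, in the order slide 1, slide 2, and changes are 5-Aza-CdR minus PBS ± SE from limma, with a probe called at an adjusted p under 0.05. Of the colon epithelial markers, CDX2 (9.68 and 10.23 with 5-Aza-CdR, against 9.71 and 10.24 with PBS), KRT18, KRT8 and EPCAM were detected in both groups, whereas CDX1, VIL1, KRT19, KRT20, CDH1 and CDH17 were not detected on any of the 4 arrays.

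Most called changes were increases. After 5-Aza-CdR 536 of 18910 kept probes were higher, 2.83% of those tested, and 10 were lower, 0.0529%. By gene, 364 of 11251 measured genes rose (3.24%) and 4 fell (0.0356%). Of the increases 529 probes changed at least 2-fold, 282 at least 4-fold, 72 at least 16-fold and 28 at least 64-fold, and the median change among them was 2.10 on the log2 scale. The median over all kept probes was -0.06. With the slide as a block in the fit, 450 genes rose (4.0%) and 32 fell (0.284%). At an unadjusted p under 0.05, 948 probes were higher and 630 lower.

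**Figure D1:**
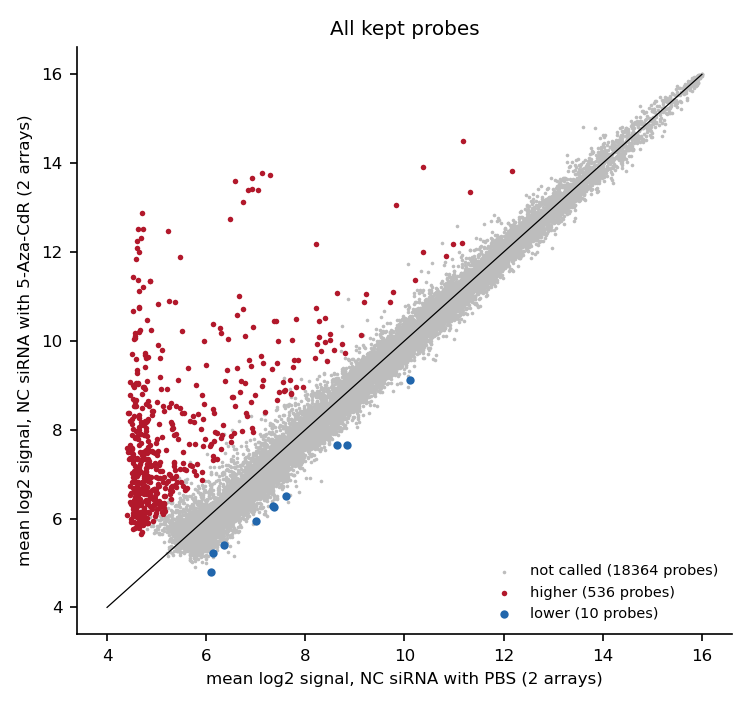
Mean normalized log2 signal of each of the 18910 kept probes with 5-Aza-CdR (vertical axis, 2 arrays) against PBS (horizontal axis, 2 arrays), with probes called higher in red and lower in blue and the line of equal signal in black. Most of the 536 red points lie at the left edge, where the PBS arrays read background, and the 10 blue points lie close to the line.

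Of the 536 probes that rose, 392 were detected on neither PBS array, 21 on 1 and 123 on both, and all 536 were detected on both 5-Aza-CdR arrays. The 577 kept probes that neither PBS array detected entered the comparison only because both 5-Aza-CdR arrays detected them, so they had to differ and their share is not read as a result. Among the 17037 probes that both PBS arrays detected, the share called higher was 1.59% below a mean PBS signal of 6 (13 of 819), 2.04% at 6 to 7, 1.29% at 7 to 8, 0.722% at 8 to 9, 0.267% at 9 to 10 and 0.189% at 10 to 12. Above a PBS signal of 12, 1 of 2842 probes rose. By gene, 86 of 10411 genes that both PBS arrays detected were higher (0.826%). A total of 237 probes showed the opposite pattern of detection, on both PBS arrays and neither 5-Aza-CdR array, and 3 of the 10 probes that fell were among them.

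Both slides gave the same direction for each of the 546 called probes, which were picked for their difference. Of all 18910 kept probes 5174 were higher and 7816 lower on both slides. The median difference of the probes called higher was 2.04 on slide 1 and 2.23 on slide 2, and 389 of the 536 changed more on slide 2. Where a gene had more than 1 kept probe, as 3004 genes did, 87 had a probe that rose: in 48 of them all probes rose, in 39 a part of them did, and in 0 did another probe fall.

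Promoter sequences are shown for 6 of the genes that rose, because the drug acts at CpG dinucleotides and these promoters differ widely in how many they hold. Each line gives the 150 bases before the RefSeq start site on the gene's own strand (GRCh38.p14), 5′ to 3′, with every CpG in capitals.
DAZL: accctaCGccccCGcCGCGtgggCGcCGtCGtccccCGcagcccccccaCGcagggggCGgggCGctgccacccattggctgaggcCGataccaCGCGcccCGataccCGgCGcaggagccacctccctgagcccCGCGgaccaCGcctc
MAEL: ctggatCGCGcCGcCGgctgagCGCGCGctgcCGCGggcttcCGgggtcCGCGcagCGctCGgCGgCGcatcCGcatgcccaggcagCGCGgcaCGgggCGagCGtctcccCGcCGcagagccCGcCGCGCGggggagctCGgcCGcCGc
CHFR: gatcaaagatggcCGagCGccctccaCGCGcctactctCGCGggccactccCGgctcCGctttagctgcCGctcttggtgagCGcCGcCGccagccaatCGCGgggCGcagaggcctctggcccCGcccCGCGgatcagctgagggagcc
MAGEB2: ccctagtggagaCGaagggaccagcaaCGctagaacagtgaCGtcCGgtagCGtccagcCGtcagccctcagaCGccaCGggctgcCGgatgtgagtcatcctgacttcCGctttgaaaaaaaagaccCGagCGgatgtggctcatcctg
LOX: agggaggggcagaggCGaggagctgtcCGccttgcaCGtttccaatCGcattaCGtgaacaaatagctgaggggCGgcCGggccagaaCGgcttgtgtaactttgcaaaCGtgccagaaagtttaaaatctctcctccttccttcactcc
HCLS1: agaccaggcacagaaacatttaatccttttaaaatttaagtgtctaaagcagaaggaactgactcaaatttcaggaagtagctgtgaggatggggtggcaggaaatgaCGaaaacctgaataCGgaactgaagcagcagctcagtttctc

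These windows are chr3:16605424-16605573 (minus strand) for DAZL, chr1:166975432-166975581 (plus) for MAEL, chr12:132887606-132887755 (minus) for CHFR, chrX:30215413-30215562 (plus) for MAGEB2, chr5:122078260-122078409 (minus) for LOX and chr3:121660904-121661053 (minus) for HCLS1. MAEL held 31 CpG in its 150 bases, DAZL 20, CHFR 18, MAGEB2 12, LOX 9 and HCLS1 2. HCLS1 rose by 6.42 ± 0.24 and MAEL by 4.83 ± 0.25, so a large increase was seen with few and with many CpG in this window. A promoter entry was found for 280 of the 364 genes that rose (76.9%), under the 80% needed, so their CpG content was not compared as a set.

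The 30 largest increases were led by genes that are normally active in germ cells, and 28 of the 30 were not detected on either PBS array. For these a fold change is a lower bound, written as at least N-fold, taken against the lowest signal that counted as detected. VCX3B, of an X-linked testis gene family, read 12.35 and 13.42 with 5-Aza-CdR, against 4.75 and 4.68 with PBS, at least 150.7-fold higher. LOX, the lysyl oxidase that cross-links collagen, read 12.42 and 12.60 with 5-Aza-CdR, against 4.89 and 4.58 with PBS, at least 116.6-fold, and DAZL, an RNA-binding protein of germ cells, 12.49 and 12.03 with 5-Aza-CdR, against 4.66 and 4.57 with PBS, at least 97.8-fold. The drug arrays thus reached levels in the upper part of the range while the PBS arrays stayed at background. Because the PBS values are bounds, the order among these genes is uncertain, and VCX, H2AB, CT45 and GAGE genes are close copies whose probes may read each other.

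Lower among the 30 largest increases, several were of genes with no germline role. ZNF274, a zinc finger repressor, read 10.33 and 10.59 with 5-Aza-CdR, against 4.63 and 5.00 with PBS (5.64 ± 0.22, adjusted p = 9.34e-07, at least 28.1-fold), and its other 2 kept probes also rose, by 3.78 and 1.05. MAP1LC3A, an LC3 protein of the autophagosome membrane, read 9.57 and 10.80 with 5-Aza-CdR, against 4.62 and 4.52 with PBS (5.61 ± 0.40, at least 23.3-fold), with a spread between the drug arrays that was among the widest of the 30. BNIP3, a mitochondrial protein of mitophagy and cell death, read 9.67 and 10.13 with 5-Aza-CdR, against 4.99 and 5.06 with PBS (4.87 ± 0.23, at least 19.1-fold). In each of these genes the groups lay far apart with both PBS arrays below detection. EEF1A2, the elongation factor isoform of neurons and muscle, read 9.32 and 10.15 with 5-Aza-CdR, against 4.64 and 4.90 with PBS (4.96 ± 0.29, at least 17-fold). HSPA1A, an inducible HSP70 chaperone with a near-identical copy beside it, read 8.81 and 9.35 with 5-Aza-CdR, against 4.41 and 4.50 with PBS (4.63 ± 0.24, at least 10.8-fold). RAB34, a GTPase of vesicle traffic and cilia, rose at least 10.6-fold, ZSCAN18, a zinc finger protein, at least 17.7-fold, and C7orf57 at least 16.8-fold.

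**Figure D2:**
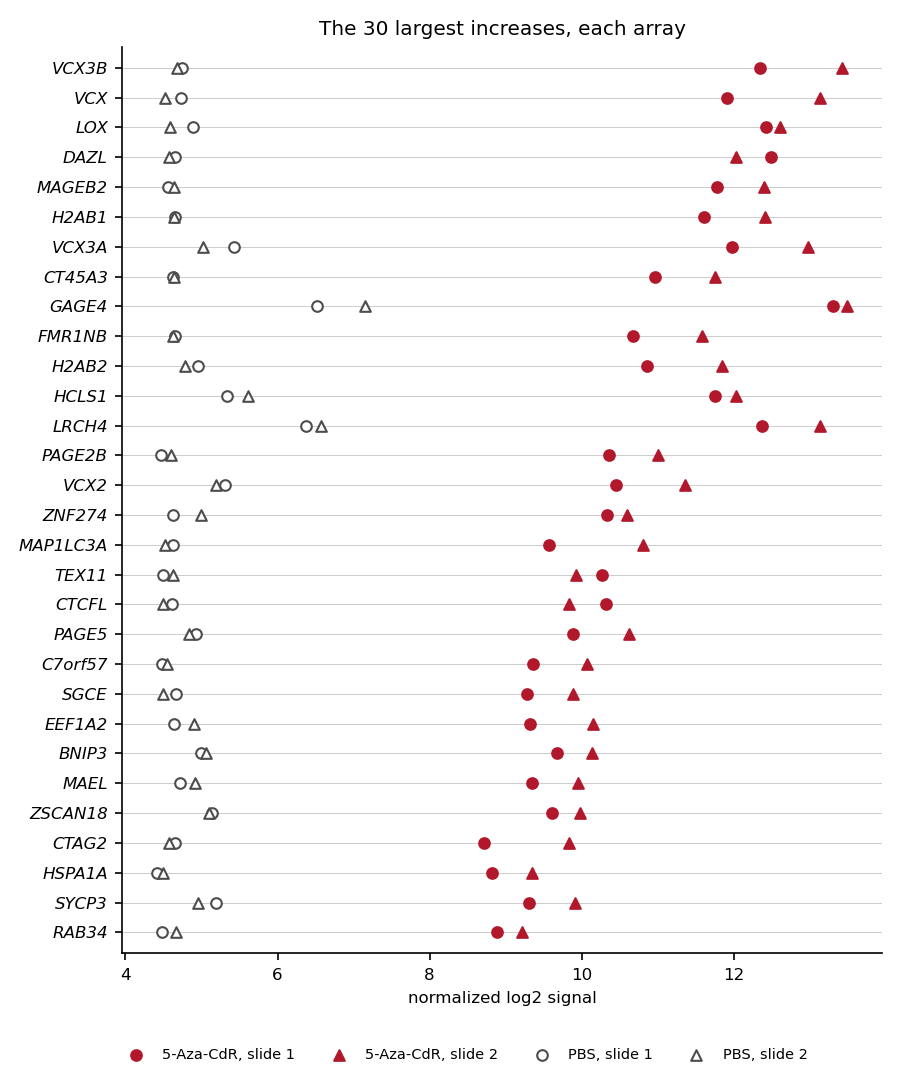
Normalized log2 signal (horizontal axis) of the 30 genes with the largest increases on each of the 4 arrays, with 5-Aza-CdR as filled red symbols and PBS as open grey symbols, circles for slide 1 and triangles for slide 2. The groups do not overlap for any gene, and only GAGE4 and LRCH4 were detected on the PBS arrays.

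Cancer-testis genes, which are silent outside the germ line and return in some tumours, held more increases than any other list examined. Of 70 listed members named on the array, 44 were measured and 38 rose, against 3.24% of all measured genes. Their median change was 2.94, or 2.35 with undetected PBS values set at their bound, and that of all measured genes was -0.03. Of the 44, 35 were detected on neither PBS array and passed the filter through the drug arrays alone, so that count leans upward. Of all 354 genes that entered in this way 265 rose, so 3.24% is not a like share for those 35. Among the 5 detected on both PBS arrays, where 0.826% of all genes rose, 2 rose (GAGE4 and GAGE7) and the other 3 did not pass. Members lower among the 30 largest increases included CTCFL, a testis paralogue of the insulator protein CTCF. It read 10.31 and 9.84 with 5-Aza-CdR, against 4.62 and 4.50 with PBS (at least 21.5-fold). CTAG2, also among the 30 and of the NY-ESO-1 family, read 8.71 and 9.83 with 5-Aza-CdR, against 4.65 and 4.58 with PBS (at least 12.3-fold). The 6 measured members that were not called were ACTL8, SSX4, MAGEB3, PRAME, CTAG1B and MAGEA11, with changes of -0.22 to 0.69.

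Genes of meiosis and of the piRNA pathway, which silences transposons in germ cells, rose in part. Of 59 named on the array, 35 were measured and 18 were higher (median change 1.56, or 0.94 with bounds), against 3.24% of all measured genes. Of the 35, 18 were undetected on both PBS arrays and passed the filter through the drug arrays alone, so that count leans upward. TEX11, a meiotic crossover protein, read 10.27 and 9.93 with 5-Aza-CdR, against 4.50 and 4.63 with PBS (5.53 ± 0.21, at least 21.9-fold). MAEL, a piRNA pathway protein, read 9.34 and 9.95 with 5-Aza-CdR, against 4.72 and 4.92 with PBS (at least 16-fold), and its second probe changed by 4.74. SYCP3, of the synaptonemal complex that pairs chromosomes, read 9.31 and 9.91 with 5-Aza-CdR, against 5.20 and 4.95 with PBS (4.53 ± 0.28, at least 15.6-fold). These genes went up together on both slides with no overlap, as did 2258 of all 18910 kept probes. HORMAD1, which marks unpaired meiotic chromosomes, changed by 3.23 ± 0.23, and PIWIL2 and PIWIL4, which bind piRNAs, by 2.13 ± 0.22 and 1.56 ± 0.34. With the block STAG3 and MEIOB were also called. Not every member moved: of the 12 detected on both PBS arrays 2 rose (PIWIL4 and TUBA3D), against 0.826% of all such genes. The median of the 12 was 0.14. DMC1, the meiotic recombinase, read 0.13 and the endonuclease SPO11 -0.02. RefSeq promoters were at hand for 15 of the 18 genes that rose, with a median of 17 CpG in the 250 bases before the start, below the 21 of the 8966 measured genes with a promoter that were not called and above the 11 of all 27305 promoters in the table. The letters CCAAT, on either strand, were in 60.0% of the 15, in 36% of the uncalled measured genes and in 33.0% of all promoters. GGGCGG, the GC box, was in 66.7% of the 15, about the share in the uncalled measured genes (67.0%), and in 42.3% of all promoters. Other motifs were counted as well. CRE half-sites were in 13.3% of the 15, against 30.6% of the uncalled measured genes. E-boxes were in 6.67%, against 9.28%, ETS cores in 13.3%, against 16.4%, E2F cores in 6.67%, against 9.21%, and TATA in 6.67%, against 5.4%. These shares describe 15 windows and were not tested.

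Some of the genes that rose were neighbours. Among measured genes ordered along the chromosomes, 74 of the 361 genes that rose and had a position lay in 33 unbroken runs of 2 or more, and the largest run held 5 genes. That run was SPANXB1, SPANXA1, SPANXD, MAGEC1 and MAGEC2 on the X chromosome, and 4 CT45A genes formed another. On chromosome 16 the run was HBA2, HBA1 and HBQ1, of the alpha globin cluster. HBA1 read 8.97 and 9.80 with 5-Aza-CdR, against 5.35 and 5.92 with PBS (3.75 ± 0.39), HBA2 changed by 1.85 ± 0.31 and HBQ1 by 2.75 ± 0.33, and HBA1 and HBA2 are close copies. Pairs of unlike genes included RFTN1 and DAZL, MAEL and CD247, BNIP3 and DPYSL4, POMC and DNMT3A, MYL4 and ITGB3, and VAMP8 and VAMP5. How many such runs the spacing of genes alone would give was not tested.

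The X chromosome carried 59 of the 361 placed genes that rose (16.3%), from 407 measured genes (14.5% of them), against 301 of 10827 measured autosomal genes (2.78%). Of the 407, 57 were undetected on both PBS arrays, against 354 of all 11251 measured genes. Such genes passed the filter through the drug arrays alone, so the 14.5% leans upward. Of the 59 that rose, 38 belonged to the cancer-testis or germ cell lists. Outside both lists 21 of 365 X-linked genes rose (5.75%), against 286 of 10793 on autosomes (2.65%), and the 21 still included CT47A7, CT47A6 and MAGEA9B, which belong to cancer-testis families. Among genes detected on both PBS arrays the X chromosome had 4 of 333 (1.2%), against 80 of 10066 autosomal genes (0.795%). Chromosome 19 had 36 of 796 genes higher (4.52%), chromosome 6 had 25 of 595 (4.2%) and chromosome 20 had 13 of 312 (4.17%). On the Y chromosome 1 of 5 measured genes rose, too few for a share.

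**Figure D3:**
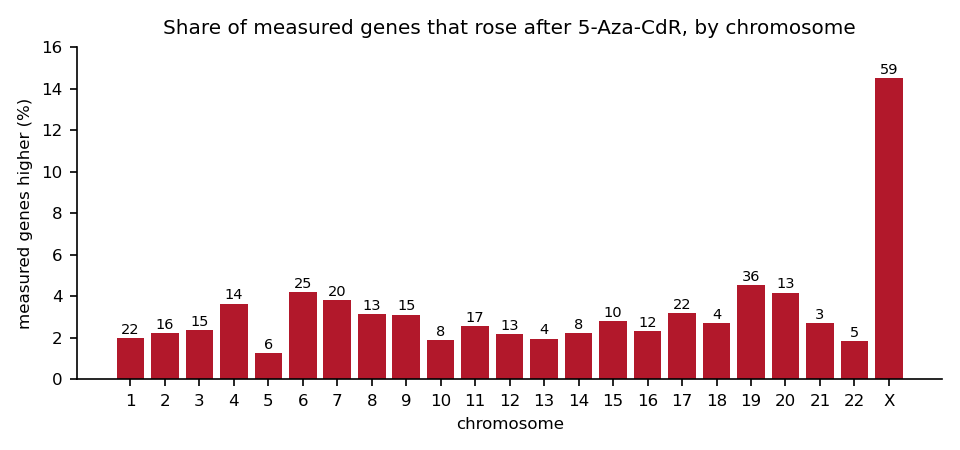
Share of measured genes that rose after 5-Aza-CdR (vertical axis, percent) on chromosomes 1 to 22 and X (horizontal axis; Y, with 1 of 5 genes higher, is not drawn), with the number of genes that rose above each bar. The X chromosome stands at 14.5% with 59 genes, and the next bar drawn, chromosome 19, at 4.52% with 36. Genes undetected on both PBS arrays, which passed the filter through the drug arrays alone, are included (57 of 407 on the X chromosome, 34 of 796 on chromosome 19).

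Of 345 measured genes with a ZNF symbol, which encode zinc finger proteins, 12 were higher (3.48%), close to the 3.24% of all measured genes. They were 10 of 159 on chromosome 19 (6.29%), where 26 of the 637 other genes rose (4.08%), and 2 of 186 elsewhere (1.08%), and 11 of the 345 were undetected on both PBS arrays. ZNF134 read 7.13 and 7.21 with 5-Aza-CdR, against 4.68 and 4.59 with PBS (2.53 ± 0.20). ZNF671 read 6.95 and 7.18 with 5-Aza-CdR, against 4.61 and 4.68 with PBS (2.42 ± 0.20). ZNF586 was the exception in being well detected under PBS, with 10.75 and 10.74 with 5-Aza-CdR, against 8.27 and 8.14 with PBS (2.54 ± 0.22). The median of all 345 was -0.13, against -0.03 for all measured genes. With the block ZNF649 was also called higher, and ZNF180 and ZNF474 lower.

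Genes that were already expressed also rose, and here a fold change is measured on both sides. Of the 10103 genes detected on all 4 arrays, 86 were higher (0.851%). By probe, 123 of 16148 were higher, and 84 when only these probes were fitted and adjusted. VIM, the intermediate filament of mesenchymal cells, read 14.58 and 14.44 with 5-Aza-CdR, against 11 and 11.36 with PBS (3.33 ± 0.26, adjusted p = 4.12e-05), and its second probe changed by 3.55. TPM2, a tropomyosin of contractile filaments, read 12.84 and 13.29 with 5-Aza-CdR, against 9.72 and 9.95 with PBS (3.23 ± 0.24). HERC5, the ligase that attaches ISG15 to proteins, read 10.92 and 10.51 with 5-Aza-CdR, against 6.99 and 6.50 with PBS (3.97 ± 0.26). VIM and TPM2 thus went up from levels already in the middle of the range. TUBB6, a beta-tubulin, changed by 3.88 ± 0.25, ABCA1, which exports cholesterol from cells, by 3.37 ± 0.27, and VEGFC, a growth factor of lymphatic vessels, by 3.32 ± 0.25. GCNA, a germ cell protein, changed by 4.34 ± 0.27, RASIP1, of endothelial junctions, by 4.03 ± 0.39, SH2D5 by 4.01 ± 0.20, FERMT3, the kindlin of blood cells, by 3.61 ± 0.26 and MYL4, an atrial myosin light chain, by 3.45 ± 0.27. For LRCH4 and SH2D5 the probes of the gene differed. The leading LRCH4 probe read 12.36 and 13.13 with 5-Aza-CdR, against 6.38 and 6.57 with PBS. The other LRCH4 probe read 9.57 and 9.36 with 5-Aza-CdR, against 9.13 and 9.07 with PBS, and was not called (0.36, adjusted p = 0.929). Another SH2D5 probe, also detected on all 4 arrays, changed by -0.01 and was not called by limma (adjusted p = 0.998).

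**Figure D4:**
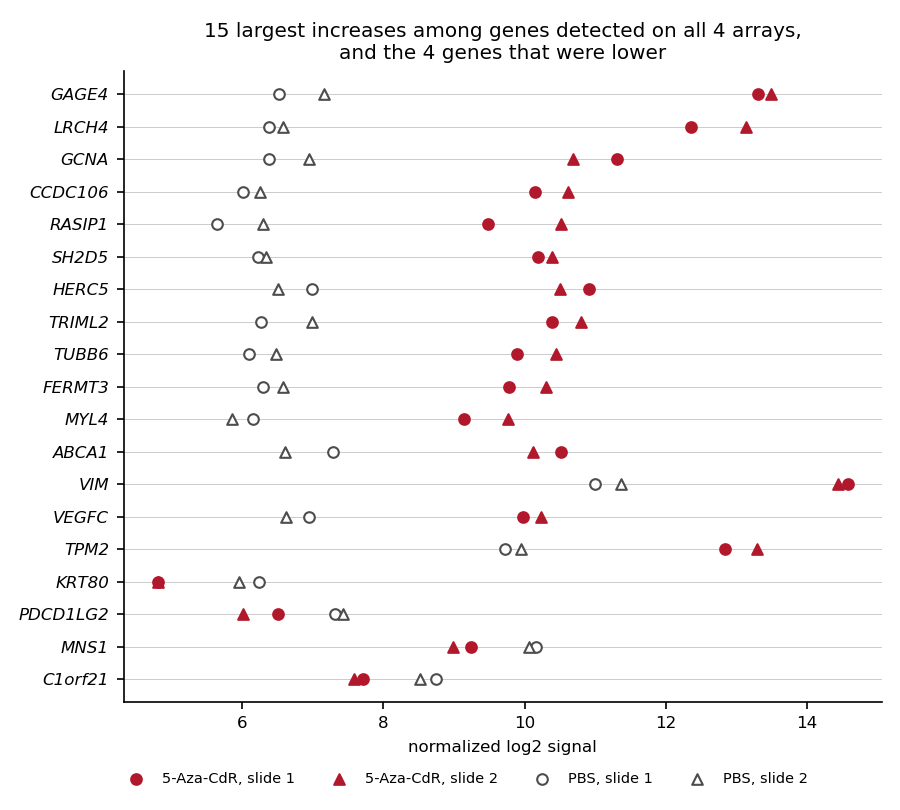
Normalized log2 signal (horizontal axis) on each array of the 15 largest increases among genes detected on all 4 arrays (top) and of the 4 genes that fell (bottom 4), with 5-Aza-CdR filled and PBS open, circles for slide 1 and triangles for slide 2. The increases are separated by 3.23 to 6.56 log2 units and the decreases by 0.98 to 1.29.

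CDKN2A, CHFR, CTCFL and SYCP3, which the study follows as silenced by methylation, rose, and the genes it follows as constitutively expressed were not called. The study chose these genes in such cells, so their direction is not independent evidence. CDKN2A, which encodes the CDK inhibitor p16, read 7.91 and 8.36 with 5-Aza-CdR, against 4.54 and 4.46 with PBS (3.64 ± 0.22, at least 5.62-fold), and its second probe changed by 3.04. CHFR, a mitotic checkpoint ligase, was detected without the drug, with 9.04 and 9.08 with 5-Aza-CdR, against 6.99 and 6.58 with PBS (2.27 ± 0.22, adjusted p = 0.000203). Probes for MYOD1, the muscle regulator, were not detected on any of the 4 arrays. The constitutively expressed LAMB3, G3BP1 and HSPA5 read -0.03, -0.22 and -0.53, with 1 of the 3, HSPA5, at an unadjusted p under 0.05. SRCAP read 6.83 and 7.16 with 5-Aza-CdR, against 7.19 and 7.07 with PBS, overlapping values (-0.13 ± 0.22, adjusted p = 0.996).

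Genes often methylated in colon cancer rose in 6 of 21 measured cases, of 51 named on the array, against 3.24% of all measured genes. The median change was -0.01. Of the 21, 3 were detected on neither PBS array. They passed the filter through the drug arrays alone, so the count of 6 leans upward. Among the 14 detected on both PBS arrays 3 rose, against 0.826% of all such genes. HLTF, a chromatin remodeller of DNA repair, read 9.14 and 8.71 with 5-Aza-CdR, against 5.34 and 5.06 with PBS (3.72 ± 0.28, at least 9.69-fold). GSDME, the pore-forming gasdermin of pyroptosis, read 7.13 and 7.61 with 5-Aza-CdR, against 4.48 and 4.45 with PBS (at least 3.3-fold), and TFPI2, a protease inhibitor, 6.85 and 6.61 with 5-Aza-CdR, against 4.45 and 4.47 with PBS (at least 2.12-fold). VIM, DKK3, a secreted Wnt modulator (1.42 ± 0.20), and NDRG4 (0.93) completed the 6. MGMT, the repair protein that removes alkyl groups from guanine, read -0.25 and RASSF1, a tumour suppressor, -0.01.

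Of 21 measured imprinted genes, which are expressed from 1 parental allele, 4 rose, against 3.24% of all measured genes. Of the 21, 3 were detected on neither PBS array. They passed the filter through the drug arrays alone, so the count of 4 leans upward. Among the 17 detected on both PBS arrays 1 rose, against 0.826% of all such genes. SGCE, a sarcoglycan, read 9.28 and 9.89 with 5-Aza-CdR, against 4.67 and 4.49 with PBS (5.00 ± 0.26, at least 15.3-fold). NNAT, neuronatin, read 8.66 and 9.54 with 5-Aza-CdR, against 4.85 and 4.76 with PBS (4.29 ± 0.29, at least 10.9-fold) and NDN, necdin, 6.56 and 7.50 with 5-Aza-CdR, against 4.56 and 4.61 with PBS (2.44 ± 0.36, at least 2.61-fold). The last of the 4 was SLC67A1-AS, which was detected on both PBS arrays and read 8.85 and 9.37 with 5-Aza-CdR, against 6.59 and 7.72 with PBS (1.96 ± 0.36). The median of the 21 was 0.22. The NNAT gene lies within an intron of BLCAP, itself listed as imprinted, which changed by 0.41 (adjusted p = 0.717).

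Histone genes rose in 9 of 38 measured cases, against 3.24% of all measured genes. All 9 were among the 35 members detected on both PBS arrays, where 0.826% of all genes rose. With the block 11 rose, H2AC18 (1.44) and H2AC20 (0.97) being the others. H2BC12 read 13.80 and 13.87 with 5-Aza-CdR, against 11.85 and 12.49 with PBS (1.66 ± 0.29). H2BC5 read 9.91 and 10.38 with 5-Aza-CdR, against 8.29 and 8.69 with PBS (1.66 ± 0.25). Its second probe was not called by limma (0.94, adjusted p = 0.321, and 0.0343 with the block). H2AC6, the neighbour of H2BC5 on chromosome 6, read 8.82 and 9.31 with 5-Aza-CdR, against 7.45 and 7.66 with PBS (1.51 ± 0.23). H3C8 and H4C8, also neighbours, changed by 1.58 ± 0.27 and 1.23 ± 0.21. The median of the 38 was 0.46. H2AZ1, the variant that the SRCAP complex inserts, read -0.12. The coding sequences of these genes are alike, so a probe may read several of them.

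Of 36 measured interferon-stimulated genes 3 were higher (8.33%), against 3.24% of all measured genes, and the median change was 0.05. The 3 were among 31 detected on both PBS arrays, where 0.826% of all genes rose. With the block 5 were higher, IFI6 (1.14) and IRF7 (0.94) being the others. Beside HERC5 these were IFITM1, a membrane protein that blocks virus entry, with 9.28 and 9.74 with 5-Aza-CdR against 7.22 and 7.62 with PBS (2.09 ± 0.25), and LGALS3BP, a secreted glycoprotein (1.59 ± 0.33). ISG15 read 10.53 and 11.38 with 5-Aza-CdR, against 10.72 and 11.41 with PBS, and MX1, an antiviral GTPase, 12.11 and 12.16 with 5-Aza-CdR, against 12.41 and 12.13 with PBS, with overlap in both. IFIT2 read 6.04 and 5.73 with 5-Aza-CdR, against 7.06 and 6.84 with PBS (-1.07, adjusted p = 0.0714, and 0.0154 with the block). Of 13 measured sensors of nucleic acids and their adaptors 0 were called by limma and 1 had an unadjusted p under 0.05, with a median of 0.02, and TLR3 was called lower with the block (-0.89, adjusted p = 0.0271). Of 16 genes of MHC class I presentation HLA-B was called, with 11.80 and 12.21 with 5-Aza-CdR, against 10.22 and 10.54 with PBS (1.63 ± 0.23), and the median of the 16 was 0.30.

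**Figure D5:**
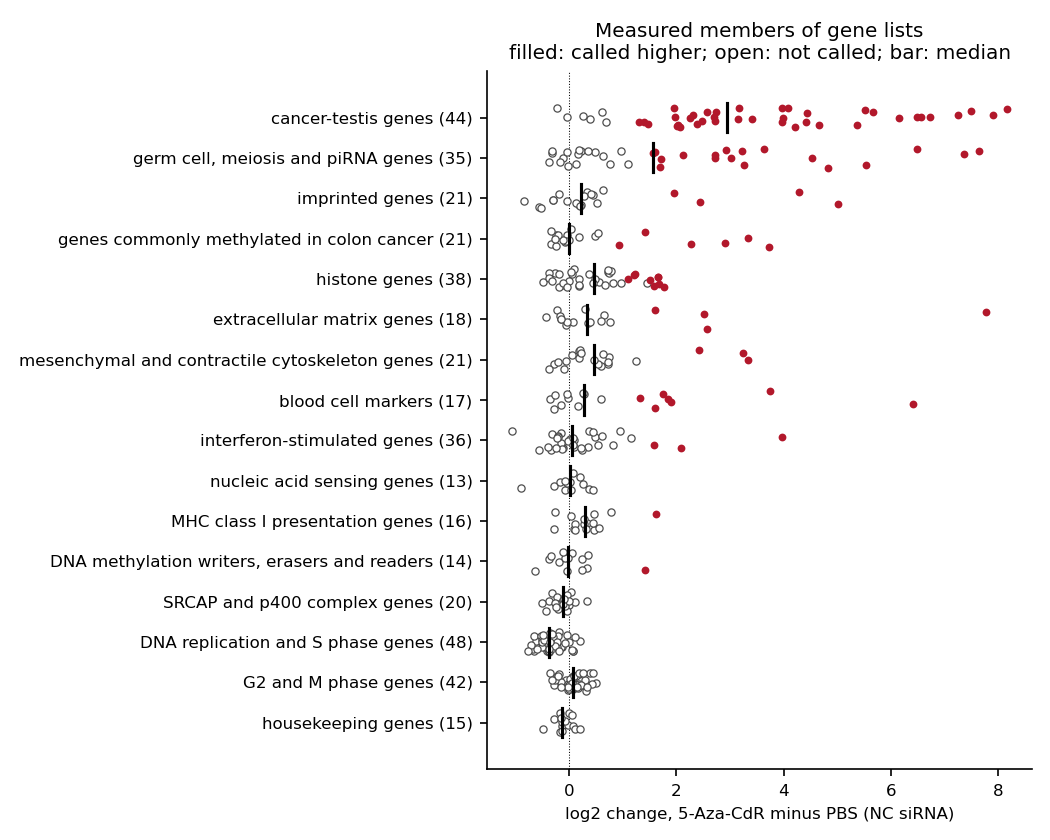
Log2 change (horizontal axis, 5-Aza-CdR minus PBS) of every measured gene in 16 lists, with the number measured in parentheses, called increases filled, other genes open and the median as a bar. Cancer-testis genes have a median of 2.94 and reach 8.17, and S phase genes lie mostly to its left at -0.37.

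Genes of other cell types were among the increases. Of 17 measured blood cell markers 7 rose, against 3.24% of all measured genes, led by HCLS1, a signalling adaptor of blood cells, with 11.75 and 12.03 with 5-Aza-CdR against 5.34 and 5.61 with PBS (at least 75.8-fold). The others were HBA1, HBA2, CD79B (1.91), WAS (1.76), CD14 (1.61) and CORO1A (1.32), while PTPRC and CD3E, which define leukocytes and T cells, were not detected on any of the 4 arrays. Of the 17, 5 were detected on neither PBS array. They passed the filter through the drug arrays alone, so the count of 7 leans upward. Of the 9 that both PBS arrays detected 1 rose, against 0.826% of all such genes. The median of the 17 was 0.27, and -0.04 for those 9. SYN1 and UCHL1 rose among 12 neuronal markers (3.01 and 1.69), CKM and MYL4 among 7 muscle genes (2.37 and 3.45), and ENG and ESAM among 6 endothelial markers (3.40 and 2.62). The medians of these 3 lists were -0.07, 0.36 and 0.17, and 2, 1 and 1 of their members were undetected on both PBS arrays. The other SYN1 probes and the other CD14 probe were not detected on any of the 4 arrays. Among markers detected in both groups, LCP1 of blood cells (-0.26), STMN2 of neurons (-0.03) and PECAM1 of endothelium (0.06) were not called. The fibroblast markers COL1A1, COL1A2, COL3A1, DCN and LUM and the endothelial CDH5 and VWF were not detected on any of the 4 arrays. Among mesenchymal and contractile genes VIM, TPM2 and ACTA2, the smooth muscle actin (2.43 ± 0.24), rose of 21 measured, and among 18 matrix genes LOX, EFEMP2 (2.57), SERPINE2 (2.51) and SPP1 (1.59). Of the 18 matrix genes 4 were undetected on both PBS arrays, and of the 12 detected on both 1 rose. In bulk RNA, more cells that express a gene and more RNA per cell cannot be told apart.

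Genes of the machinery that the drug acts through were examined next. Of 14 measured writers, erasers and readers of DNA methylation 1 rose, DNMT3A, a de novo methyltransferase, with 6.41 and 7.24 with 5-Aza-CdR against 5.55 and 5.29 with PBS (1.41 ± 0.29, at least 2.27-fold), but its second probe was not called (0.36, adjusted p = 0.968). DNMT1, the maintenance methyltransferase that the drug traps, read 14.27 and 14.01 with 5-Aza-CdR, against 14.44 and 14.21 with PBS (-0.19 ± 0.21), and DNMT3B 8.64 and 8.42 with 5-Aza-CdR, against 8.37 and 8.21 with PBS (0.24 ± 0.23). Of 15 genes of deoxycytidine uptake and metabolism 0 were called by limma, with or without the block, and 1 had an unadjusted p under 0.05. The kinase DCK, which activates the drug, changed by -0.44 (adjusted p = 0.886). Of 20 subunits of the SRCAP and p400 complexes 0 were called by limma either way and 0 had an unadjusted p under 0.05 (median -0.12). Of 24 deacetylases and repressors 0 were called and 2 had an unadjusted p under 0.05, and HDAC4 was lower with the block (-1.28, adjusted p = 0.0165, against 0.0991 without it).

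Genes of DNA replication lay slightly below 0 as a list. Of 48 measured S phase genes 0 were called by limma, with or without the block. At an unadjusted p under 0.05, 11 were lower, against 295 of all 11251 measured genes. The median change was -0.37, against -0.03 for all measured genes. On both slides 36 of the 48 were lower and 3 higher, against 4514 lower and 3466 higher of all 11251 measured genes. The lowest was CLSPN, a checkpoint mediator, at -0.76 (adjusted p = 0.328), and CDC6 and MCM6, which license origins, read -0.67 and -0.66. The 42 genes of G2 and M phase had a median of 0.08, with 0 called by limma and 0 at an unadjusted p under 0.05. Of 25 genes of the unfolded protein response, 19 of cholesterol synthesis, 21 of glycolysis, 33 proteasome subunits and 15 housekeeping genes, 0 were called by limma in each list, with medians of -0.13 to 0.01, and 1 gene in all had an unadjusted p under 0.05. Of 24 apoptosis regulators BNIP3 was the 1 that rose.

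Decreases were few without a slide term, and their number depended on it: 10 probes without the block, 64 with it in the fit to 8 arrays, and 256, against 775 higher, with it in the fit to the 4 NC arrays alone. The 4 genes called without it changed by 0.98 to 1.29 log2 units. KRT80, a keratin, read 4.8 on both 5-Aza-CdR arrays, where it was not detected, against 6.24 and 5.94 with PBS (-1.29 ± 0.21, adjusted p = 0.00694, at least 1.38-fold lower). PDCD1LG2, a ligand of PD-1, read 6.51 and 6.01 with 5-Aza-CdR, against 7.32 and 7.42 with PBS (-1.11 ± 0.24), MNS1, a protein of cilia and flagella, 9.24 and 8.99 with 5-Aza-CdR, against 10.16 and 10.06 with PBS (-0.99 ± 0.21), and C1orf21 7.70 and 7.59 with 5-Aza-CdR, against 8.75 and 8.51 with PBS (-0.98 ± 0.21). In all 4 genes the groups were separated by about 1 log2 unit with no overlap. Of all 18910 kept probes 3406 were lower with no overlap, so the lack of overlap alone does not set the 4 genes apart. Further probes fell in genes whose representative probe was not called. For BCL2, which blocks apoptosis, all 4 kept probes read below 0 and 1 was called (7.75 and 7.57 with 5-Aza-CdR, against 8.81 and 8.89 with PBS, -1.19 ± 0.20, adjusted p = 0.00846), and the representative probe read -0.91 (adjusted p = 0.0576, and 0.0231 with the block). Single probes of UNG, the uracil-DNA glycosylase, KCNQ1 and FOXP1 changed by -0.95, -1.07 and -0.92, while the representative probes of these genes read -0.51, -0.14 and -0.06. The 28 further genes called lower only with the block included MAP1LC3C (-1.45, adjusted p = 0.00107, against 0.0501 without it), E2F8 (-1.16) and MYB (-1.05), named after their values were seen.

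The other lists and families described here gave these counts, beside 3.24% over all measured genes. Members undetected on both PBS arrays passed the filter through the drug arrays alone, so counts that hold such members lean upward. Of 12 cytokines CSF3 rose (1.41), of 24 AP-1 and immediate early genes CCN2, a matrix growth factor (1.19), of 26 metallothionein and oxidative stress genes GPX3 (1.73), of 19 epithelial junction genes CLDN7, a claudin (2.77), of 12 Wnt genes DKK3, of 3 fibroblast markers ACTA2 and of 11 CDK inhibitors and D cyclins CDKN2A. Of 4 MHC class II genes, 4 colon differentiation markers and 6 hepatocyte markers 0 were called by limma, and 4 of these genes had an unadjusted p under 0.05. With the block HLA-DMA, of MHC class II, was called higher (1.06, adjusted p = 0.0138), as was the hepatocyte marker APOC1 (1.59, adjusted p = 0.000188), and FGG was called lower (-1.10, adjusted p = 0.0240). Among families, 3 of 19 tubulin genes rose (TUBB6, TUBA3D and TUBA3E), 3 of 25 protocadherins (PCDHB3, PCDHB5 and PCDH20), 2 of 44 RAB genes (RAB34 and RAB30), 2 of 216 solute carriers, 2 of 138 TMEM genes, 1 of 9 keratins (KRT12), 1 of 13 collagens (COL7A1), 1 of 68 ribosomal protein genes (RPL39L, a testis paralogue) and 1 of 18 GPR genes (GPR176). PCDHB3 changed by 2.87 ± 0.31. Of 26 HOX, 19 interleukin receptor and 8 S100 genes 0 were called by limma, with 4, 0 and 2 at an unadjusted p under 0.05, and HOXC13 and HOXD11 were called higher with the block. The block also added MT1F, SPINT2, TAGLN, CKB, CDKN1A, SLC9A9, RPS27L and PCDHB10 as higher and PCDH18 as lower in the lists and families above.

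The drug was also given after siRNA against SRCAP, on the other 4 arrays. Of the 18910 probes 0 passed the interaction test, which sets the change after NC siRNA against that after SRCAP siRNA (0.0% called by limma, smallest adjusted p = 0.552, 429 at an unadjusted p under 0.05), and 4 passed with the slide block. Of the 536 probes called higher with NC siRNA, 531 were above 0 and 346 were called after SRCAP siRNA. The change was smaller after SRCAP siRNA for 424 of the 536. Since the 536 were picked for their size on the NC arrays, a smaller value on other arrays leans on that choice. Of the 10 probes that fell, 9 were below 0 and 1 was called lower after SRCAP siRNA, and KRT80 read 0.15 there.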

How the data were processed

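Bead data were summarised with BeadStudio 3.0.1 according to the submitters' processing notes. Deposited intensity values are linear mean signals of each probe's beads, with no background subtraction or normalization, and the deposited detection p-value sets each probe against its array's negative controls. The authors also deposited log2 values after robust spline normalization in lumi, whose version is not given in the sources used here. Below a signal of 150 these had slopes of 0.475 to 0.61 against log2 signal, so low values are compressed, and they served as an alternative. The number of arrays limits the precision.

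Of 48805 lines, 2 IDs found on more than 1 line were left out. Signals were processed with neqc (normexp from detection p-values, offset 16, quantile normalization, log2) in limma 3.58.1 under R 4.3.3 over all 8 arrays. In the platform annotation 27576 of 48801 probes had 1 symbol, 13 several and 21212 none, and 27539 matched a RefSeq gene ID through which symbols were updated. The linear model held a coefficient for each of the 4 groups of the series (4 residual and 5.52 prior degrees of freedom, eBayes), with two-sided tests and Benjamini-Hochberg adjustment over the 18910 kept probes. The methods used SAM, which was not run here. A probe detected on no array of a group has a bound there: its signal or, if higher, the lowest detected signal of each array.

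The replicate number is the slide in the labels, so equal numbers pair arrays. Deviations from the group means correlated between the 5-Aza-CdR and PBS arrays of NC siRNA cells at r = 0.741, and at 0.00734 to 0.551 for other pairs of groups. The main fit has no slide term, as the study names none. On simulated data for this comparison, over 18910 probes, 16 of 100 probes changed by 1 log2 unit and 69 of 100 changed by 2 were recovered, with 2 false calls.

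The comparison, the 38 gene lists, the 14 families and the promoters shown were chosen with earlier results of these data known. A list among them is not reported here. Genes were named by rule: the 30 largest increases and up to 15 decreases, the 15 largest increases and up to 10 decreases among probes detected on all 4 arrays, the 4 members with the lowest p in each list, and the genes the study follows. Other genes named are members of a count or of a run, chosen after their values were seen. Promoters are RefSeq sequences of GRCh38.p14, and no build is given in the deposited tables. Figures were drawn with matplotlib 3.10.9. Alternatives tried were the filter, the offset, the normalization, the arrays fitted, the slide block, the variance model, the fold threshold and leaving out each array.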

Additional observations from a re-analysis of the deposited data

How the results depend on the processing

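The 536 increases and 10 decreases depended on the settings unequally. Kept for all 4 arrays detected, they were 84 and 1, with 16148 probes tested and silent genes removed by construction. The main fit called 123 and 7 of these same probes, so calls on expressed genes also moved. Quantile normalization of log2 signals without background correction gave 335 and 5, and the authors' normalized table gave 256 and 5. Decreases alone moved without a filter (18), with a fit to the 4 NC siRNA arrays (0, also when only these were normalized), with a replicate block in all 8 arrays (64) or in the 4 (256), and with a 2-fold threshold (6). Leaving out 1 array gave 409 to 496 increases and 1 to 26 decreases: 26 without 5-Aza-CdR replicate 1, 1 without 5-Aza-CdR replicate 2 or PBS replicate 1, and 5 without PBS replicate 2. The interaction had 4 calls with the block and 0 under the other 8 alternatives run. Causes were not tested, beyond the filter's construction.

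Of 106 genes recomputed (102 called genes named by rule and 4 the study follows), all 106 kept their direction and side of the threshold with either replicate block, with the trend and robust variance model, and with detection on at least 1 of the 4 arrays or 2 of all 8 as the filter. Under the authors' normalization 26 lost the call, with quantile normalization 17, with the fit to 4 arrays 21, with the offset of 50 8 and without a filter 7. Some called genes also lost the call when 1 array was left out, which leaves 1 array in a group. Without 1 array, LAMB3 ran between -0.21 and 0.14 (0.03 without 5-Aza-CdR replicate 1, 0.14 without PBS replicate 2) and SRCAP between -0.30 and 0.035 (without 5-Aza-CdR replicate 1), both uncalled and near 0 throughout. The median of the S phase list, and those of the histone, cancer-testis and germ cell lists, kept their sign in all alternatives. The blood marker median read -0.03 when all 4 arrays had to detect a probe. At 2 arrays a group, changes of 1 log2 unit were seldom recovered in simulated data.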
